A study of Mus musculus with 26 samples.

Results

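The cartilage collagens examined here are the fibrillar collagens II and XI and the fibril-associated collagen IX, encoded by Col2a1, by Col11a1 and Col11a2, and by Col9a1, Col9a2 and Col9a3. These 6 genes were taken by symbol from the 18194 genes that had at least 1 probe set annotated to them alone, and 11488 genes were bright enough to be tested. All 6 members were among them. Each gene was followed through its brightest probe set (the one with the highest mean over all arrays), and the other probe sets of the gene are given beside it. The members had 10 probe sets in all, of which 9 passed the brightness filter, a mean log2 signal above 7.93.

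Destabilization of the medial meniscus (DMM) is a surgical model of osteoarthritis in which the ligament that anchors the medial meniscus is cut, so that the joint degenerates over the following weeks. In sham surgery the joint was opened and the ligament left whole. All mice were C57BL/6 males, and the operated mice had surgery at 12 weeks of age. DMM and sham joints were taken at ages of 14, 16, 20 and 28 weeks, which were 2, 4, 8 and 16 weeks past the operation, and unoperated joints of 12-week-old mice served as time 0. There were 9 mice in each of the 9 groups, and RNA of 3 mice was pooled for each array, which gave 3 pools per group and 26 arrays in all, because 1 of the DMM pools at 2 weeks was not run. The pool is the unit of replication, and the pools of a group came from separate mice. The tissue was a block of the medial compartment with articular cartilage, meniscus, subchondral bone including any osteophytes, synovium and capsule. The paper also names ligament among the tissues that may have contributed RNA. A lower signal can therefore come from fewer chondrocytes or from less RNA per chondrocyte, and these cannot be told apart. The operated joints differed from time 0 in age as well as in time after surgery, and these cannot be told apart either.

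Collagen II is the main collagen of hyaline cartilage. Its molecule is made of 3 identical chains, and it assembles into thin fibrils together with collagen XI, which lies inside the fibril, starts its assembly and limits its width. The chains made by Col11a1 and Col11a2 join with a product of Col2a1 in the collagen XI molecule. Collagen IX sits on the fibril surface, where each of its chains is made by a gene of its own and the molecule reaches out to other matrix components. The fibrils hold the aggrecan gel of cartilage under pressure. Chondrocytes switch these genes on through SOX9 with SOX5 and SOX6, and inherited defects in them cause skeletal dysplasias and early joint disease.

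The start regions of the members are shown because the 6 genes moved together in these joints while the measured size of their change ranged widely. Promoter windows of 300 bases from RefSeq (build GRCm38.p6, 250 bases before the annotated start to 50 after it) matched 4 of the 6 members, with 5 starts. Col2a1 and Col9a3 were not matched. These counts were taken after a rule that left out entries on a single excluded chromosome, and how many it dropped is not given here. The 3 windows printed belong to Col9a1 and Col9a2, whose brightest probe sets had the largest and the smallest measured change at 16 weeks. Col9a2 also started nearest to the brightness filter. By its other probe set Col9a1 changed less than Col2a1 in sham joints at 16 weeks, but not in DMM joints. Col9a1 has an upstream start, known for the long form made in cartilage, and a downstream start, known for the short form made in the eye. Capitals mark matches to 4 motifs on either strand.
Col9a1 upstream start, chr1:24177360-24177659, plus strand: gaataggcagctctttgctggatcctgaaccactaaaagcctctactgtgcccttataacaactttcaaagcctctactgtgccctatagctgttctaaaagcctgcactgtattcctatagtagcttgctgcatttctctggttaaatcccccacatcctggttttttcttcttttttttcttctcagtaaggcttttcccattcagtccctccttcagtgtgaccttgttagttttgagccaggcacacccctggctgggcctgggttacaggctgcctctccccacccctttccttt
Col9a1 downstream start, chr1:24194953-24195252, plus strand: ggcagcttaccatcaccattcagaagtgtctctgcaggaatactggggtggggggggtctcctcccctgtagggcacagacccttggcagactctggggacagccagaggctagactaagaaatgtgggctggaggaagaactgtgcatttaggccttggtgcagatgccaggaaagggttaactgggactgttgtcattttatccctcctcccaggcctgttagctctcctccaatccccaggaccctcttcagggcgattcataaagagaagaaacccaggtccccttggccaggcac
Col9a2 start, chr4:121039316-121039615, plus strand: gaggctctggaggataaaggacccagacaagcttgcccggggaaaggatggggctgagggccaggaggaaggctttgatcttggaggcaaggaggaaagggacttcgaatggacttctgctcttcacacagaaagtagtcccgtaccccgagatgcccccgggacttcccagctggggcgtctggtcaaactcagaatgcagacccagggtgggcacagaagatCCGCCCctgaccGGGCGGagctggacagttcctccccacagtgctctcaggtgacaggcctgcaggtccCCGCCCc

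The motifs were the SOX core AACAAT, its other form ACAAAG, the GC box GGGCGG and the TATA box TATAAA, none of which contains another. Neither Col9a1 window held any of the 4, and its upstream window had the lowest GC content of the 5, at 47.3%. The Col9a2 window held 3 GC boxes, at -26, -14 and 44 from the start, and no other motif. GC boxes were also present in the unprinted windows of Col11a1 (2 matches) and Col11a2 (2 matches), and the Col11a2 window held a TATA box at -143. Neither SOX form was found in any of the 5 windows. Of all 32851 promoter windows of the same length, 35.7% held the GC box, 13.6% the TATA box, 10.7% AACAAT and 18.7% ACAAAG. These matches describe letters in a window and are not binding sites. Which start the 2 Col9a1 probe sets read was not analysed here.

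By 16 weeks all 6 cartilage collagens were lower in operated joints of both kinds than at time 0, with log2 ratios from -3.76 to -0.78 in DMM joints and from -4.50 to -0.76 in sham joints (a log2 ratio of -1 is a halving). The order of the members was alike in both arms, with Col9a1 lowest and Col9a2 nearest to 0 by the brightest probe sets. Both arms were set against the same time 0 pools, so these orders are not independent. The time 0 level of Col9a2 was also the nearest to the brightness filter. Against sham joints of the same week, DMM joints differed in none of the 6 members at any week by the test. Differences were tested in limma over 22482 probe sets, 1 fit for all 26 pools, and called at a Benjamini-Hochberg adjusted p under 0.05.

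**Figure D1:**
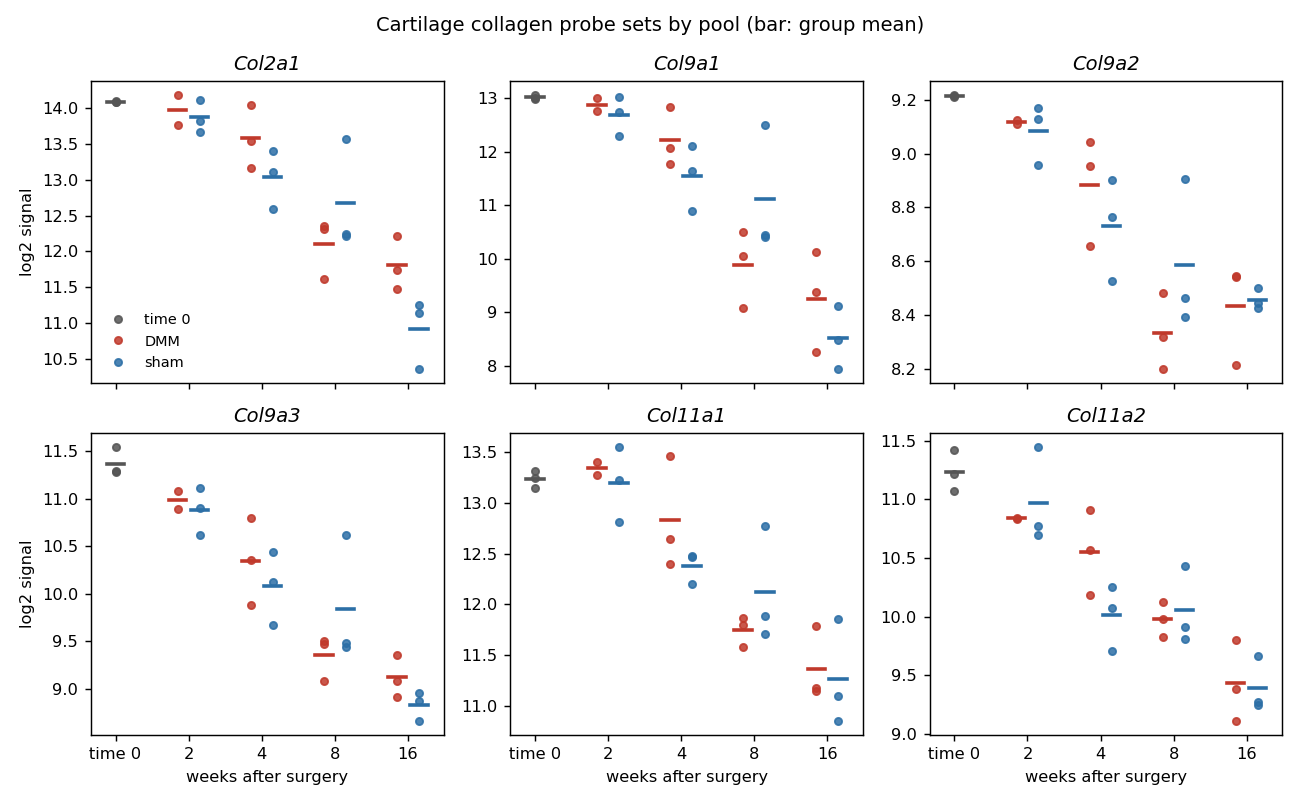
Log2 signal of the brightest probe set of each cartilage collagen in every pool (points) with the group mean (bars), against weeks after surgery on separate vertical scales, with DMM (red) left of sham (blue) and time 0 (grey) at the start of the axis. In every panel the pools at 16 weeks lie below the pools at time 0, and pool 3 of sham at 8 weeks lies above the other pools of its group.

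Col2a1 (probe set 1450567_a_at, its only one), which encodes the single chain of collagen II, was at 14.09, 14.08 and 14.10 log2 signal in the time 0 pools. In DMM joints it stood at 13.77 and 14.19 at 2 weeks, 13.54, 13.17 and 14.04 at 4 weeks, 11.62, 12.36 and 12.32 at 8 weeks, and 11.74, 12.21 and 11.48 at 16 weeks. In sham joints it stood at 13.67, 13.83 and 14.11 at 2 weeks, 13.11, 12.59 and 13.41 at 4 weeks, 12.25, 12.21 and 13.57 at 8 weeks, and 10.36, 11.26 and 11.14 at 16 weeks. The 3 lowest pools for Col2a1 were those of sham at 16 weeks, and every DMM pool of that week lay above them, a pattern held by 10.8% of probe sets tested. The pools at 16 weeks spanned 0.73 in DMM and 0.90 in sham joints, against 0.016 at time 0.

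Col9a1 (1428571_at) encodes the collagen IX chain without which mice make no collagen IX molecule. Its time 0 pools were at 13.06, 13.01 and 12.98. In DMM joints Col9a1 stood at 12.76 and 13.00 at 2 weeks, 12.06, 11.77 and 12.84 at 4 weeks, 9.09, 10.06 and 10.49 at 8 weeks, and 9.37, 10.13 and 8.26 at 16 weeks. In sham joints it stood at 12.29, 12.74 and 13.03 at 2 weeks, 11.63, 10.89 and 12.10 at 4 weeks, 10.40, 10.44 and 12.50 at 8 weeks, and 7.94, 9.13 and 8.48 at 16 weeks. Both arms at 16 weeks lay well below time 0, and the DMM and sham pools of that week overlapped.

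Col9a3 (1460734_at), another chain of collagen IX, was also lower in both arms at 16 weeks. It was at 9.08, 9.36 and 8.91 in DMM and 8.66, 8.87 and 8.96 in sham joints at 16 weeks, against 11.55, 11.29 and 11.28 at time 0. At 8 weeks its DMM pools were at 9.08, 9.50 and 9.47 and its sham pools at 9.44, 9.48 and 10.61. Col9a2 (1450673_at), the remaining chain, had the smallest measured change. It was at 8.54, 8.54 and 8.22 in DMM and 8.44, 8.50 and 8.43 in sham joints at 16 weeks, against 9.21, 9.22 and 9.21 at time 0. That time 0 level was the nearest of all members to the filter line of 7.93, and whether this limited the measured fall was not tested. The lowest pools of Col9a2 were pool 2 of DMM at 8 weeks (8.20) and pool 3 of DMM at 16 weeks (8.22), which is the pool that was also lowest in Col11a2.

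Of the collagen XI genes, Col11a1 (1418599_at), whose loss is lethal at birth in the chondrodysplasia mouse, was at 11.14, 11.78 and 11.17 in DMM and 10.85, 11.85 and 11.10 in sham joints at 16 weeks, against 13.14, 13.31 and 13.25 at time 0. At 2 weeks its DMM pools, at 13.27 and 13.40, overlapped the range of the time 0 values, and its sham pools, at 12.81, 13.23 and 13.55, spanned it. Col11a2 (1423578_at) was at 9.39, 9.80 and 9.11 in DMM and 9.25, 9.66 and 9.27 in sham joints at 16 weeks, against 11.42, 11.21 and 11.07 at time 0. For both genes the DMM and sham pools at 16 weeks overlapped and all of them lay below time 0.

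The first comparison asked how far the genes moved in sham joints, which share age and handling with DMM joints. At 16 weeks Col9a1 was 22.6-fold lower than at time 0 (log2 ratio -4.50 ± 0.51 SE, adjusted p = 2.99e-05) and Col2a1 9.02-fold lower (-3.17 ± 0.33, adjusted p = 1.62e-05). Col9a3 was 5.83-fold lower (-2.54 ± 0.26, adjusted p = 1.62e-05). Both collagen XI genes fell by similar amounts, Col11a1 3.90-fold (-1.96 ± 0.29, adjusted p = 0.000293) and Col11a2 3.58-fold (-1.84 ± 0.22, adjusted p = 3.79e-05). Col9a2 fell by 1.69-fold (-0.76 ± 0.13, adjusted p = 0.000988). That is 6 of 6 members called lower, where 4.48% of all probe sets tested were, and the median log2 ratio was -2.25 over the members and 0.03 over all probe sets tested.

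At 4 weeks the sham signals were lower for part of the members by the test. All 3 sham pools at 4 weeks lay below all 3 time 0 pools for 6 of 6 members, a pattern held by 10.5% of all probe sets tested. Only Col9a3 (log2 ratio -1.29 ± 0.26 SE, adjusted p = 0.022) and Col11a2 (-1.22 ± 0.22, adjusted p = 0.0155) were called lower, where 0.618% of probe sets were. Col2a1 (-1.06, adjusted p = 0.106), Col9a1 (-1.48, adjusted p = 0.153), Col11a1 (-0.85, adjusted p = 0.137) and Col9a2 (-0.48, adjusted p = 0.0604) missed the threshold. Of the pools compared, leaving out pool 1 of time 0 or pool 2 of sham at 4 weeks left 0 members called in limma, and leaving out any other but pool 3 of sham at 4 weeks left 1. The array's Gapdh 3' minus 5' signal difference, a measure of RNA quality, was 0.31 to 0.47 in the sham pools at 4 weeks and 0.21 to 0.28 at time 0. With it as a covariate 0 members were called in limma, in a fit that called 12 probe sets. Skeletal muscle markers averaged 12.38 to 12.45 in these sham pools and 10.49 to 11.87 at time 0. With their level as a covariate only Col11a2 was called among the members, in a fit that called 229 probe sets.

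At 2 weeks no member was called lower in sham joints, and the log2 ratios ran from -0.49 for Col9a3 to -0.04 for Col11a1 (adjusted p 0.333 to 0.962 in limma), with 0 of 6 members at an unadjusted p under 0.05. The background of probe sets called lower was 0.405%. The step from 2 to 4 weeks in sham joints was a fall for all 6 members by log2 ratio, and every pool at 4 weeks lay below every pool at 2 weeks for 6 of 6, against 11.9% of probe sets. Only Col11a2 was called in that step (-0.96 ± 0.22 SE, adjusted p = 0.0175), where 6.8% of probe sets were called lower. In limma that count was 0 without pool 2 or 3 of sham at 2 weeks or pool 2 of sham at 4 weeks, 2 without pool 1 of sham at 4 weeks and 4 without pool 1 of sham at 2 weeks.

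At 8 weeks in sham joints, 4 of 6 members were called lower than at time 0, where 0.534% of probe sets were. They were Col9a3 (log2 ratio -1.53 ± 0.26 SE, adjusted p = 0.0136), Col11a2 (-1.18 ± 0.22, adjusted p = 0.0224), Col9a2 (-0.63 ± 0.13, adjusted p = 0.0317) and Col2a1 (-1.41 ± 0.33, adjusted p = 0.0418). Col9a1 (-1.90 ± 0.51, adjusted p = 0.0847) and Col11a1 (-1.11 ± 0.29, adjusted p = 0.0718) were not. The 3 sham pools lay below all time 0 pools for 6 of 6 members, against 8.5% of probe sets. These calls rested on few pools: 0 members remained without pool 1 or pool 3 of time 0 or without pool 2 of sham at 8 weeks, 1 without pool 2 of time 0, 2 without pool 1 of sham at 8 weeks, and 0 in limma where the 2 groups were fitted alone or the muscle marker level was a covariate. Calls over all 22482 probe sets changed as well. They were 211 with all pools, and 30, 14, 18, 31 and 198 without these pools in the order given. With the 2 groups alone they were 2, and with the muscle covariate 18.

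Pool 3 of sham at 8 weeks stood above the other pools of its group in every member. Col9a1 was at 12.50 there, against 10.40 and 10.44, and the mean of the 6 members was 11.47, against 10.33 and 10.40. The mean of 8 chondrocyte markers, such as Acan, Matn3 and Sox9, was 10.74 in that pool, against 9.99 and 10.33. Its skeletal muscle markers averaged 12.47, against 13.26 and 12.97, and its erythroid markers 11.75, against 12.49 and 12.24. The part of tissue makeup in this pool's values was not tested. Without this pool, 6 of 6 members were called lower in sham at 8 weeks than at time 0, with log2 ratios from -2.59 for Col9a1 (adjusted p = 0.0142 in limma) to -0.79 for Col9a2 (adjusted p = 0.00582). In that comparison this fit called 90 of 22482 probe sets.

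**Figure D2:**
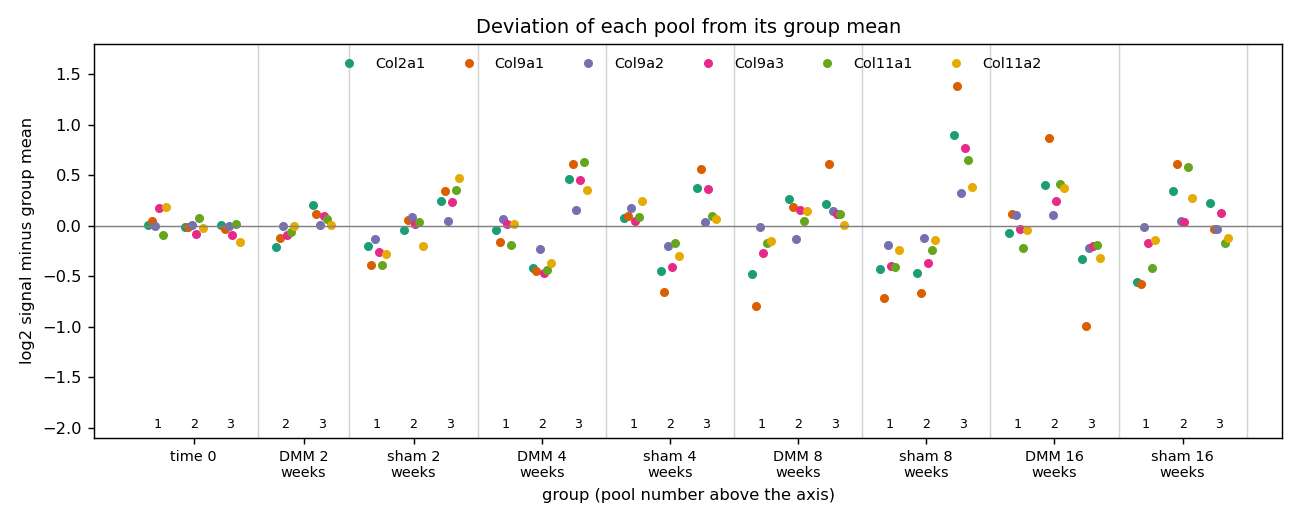
Log2 signal of each member minus its group mean, for every pool (pool number above the axis), with groups ordered by week and DMM left of sham. The members of a pool mostly lie on the same side of 0, and pool 3 of sham at 8 weeks reaches from 0.32 for Col9a2 to 1.39 for Col9a1.

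DMM joints were next set against time 0. These comparisons share the time 0 pools with the sham comparisons, so the values are given side by side and are not independent. At 16 weeks Col9a1 was 13.6-fold lower in DMM joints than at time 0 (log2 ratio -3.76 ± 0.51 SE, adjusted p = 0.000316), Col2a1 4.87-fold (-2.28 ± 0.33, adjusted p = 0.000518) and Col9a3 4.77-fold (-2.25 ± 0.26, adjusted p = 0.000108). Col11a1 was 3.65-fold lower (-1.87 ± 0.29, adjusted p = 0.000928), Col11a2 3.49-fold (-1.80 ± 0.22, adjusted p = 0.000143) and Col9a2 1.72-fold (-0.78 ± 0.13, adjusted p = 0.00151). All 6 members were called lower, against 1.23% of probe sets.

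At 8 weeks 6 of 6 members were again called lower in DMM joints, against 0.645% of probe sets, with log2 ratios from -3.14 ± 0.51 SE for Col9a1 (adjusted p = 0.00244) to -0.88 ± 0.13 for Col9a2 (adjusted p = 0.000904). With the Gapdh 3' minus 5' difference as a covariate, only Col9a2 and Col9a3 remained called, in a fit that called 39 probe sets against 167 without it. That difference was 0.43 on average in DMM joints at 8 weeks and 0.23 at time 0. At 4 weeks only Col9a3 was called (-1.02 ± 0.26 SE, adjusted p = 0.0182), against 1.77% of probe sets, although every DMM pool lay below every time 0 pool for 5 of 6 members, a pattern held by 9.78% of probe sets. The exception was Col11a1, whose DMM pool 3, at 13.46, lay above all time 0 pools. The count at 4 weeks was 0 in limma without pool 1 or 2 of time 0 or pool 2 of DMM at 4 weeks, and 2 without pool 3 of DMM at 4 weeks. At 2 weeks 0 of 6 members were called lower in limma, while 15.2% of probe sets were, and 0 of 6 reached an unadjusted p under 0.05. The 2-week values rest on 2 DMM pools.

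**Figure D3:**
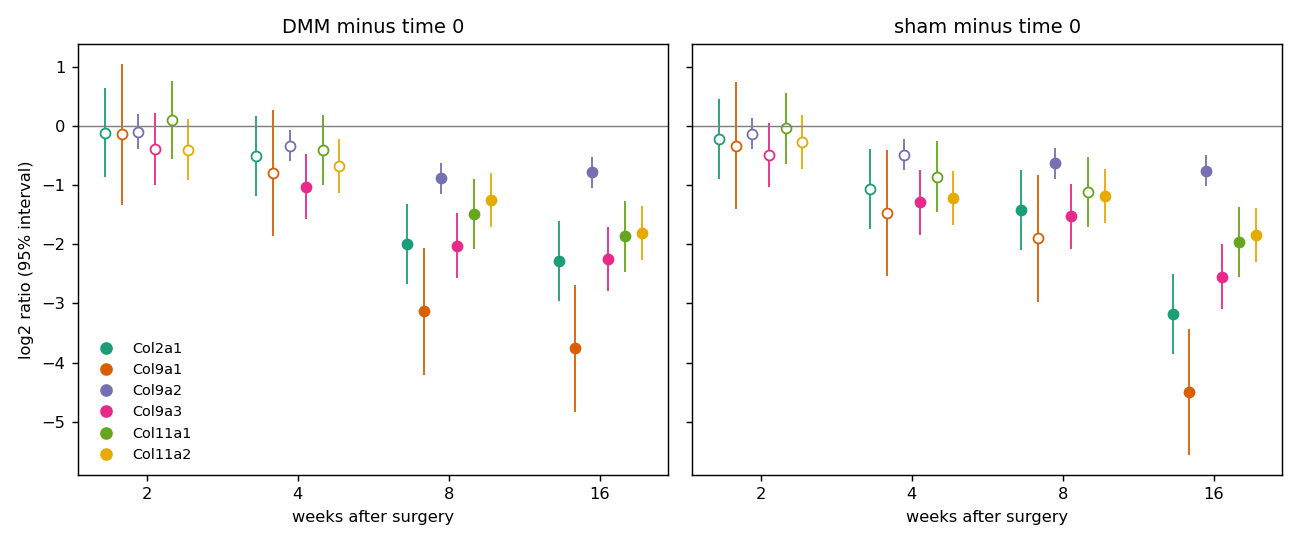
Log2 ratio of each member against time 0 in DMM joints (left) and sham joints (right) by week after surgery, with 95% intervals from the limma fit. Filled points were called at an adjusted p under 0.05, and at 16 weeks all 6 points of both panels are filled, from -4.50 to -0.76.

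The steps between successive weeks were tested within each arm. From 4 to 8 weeks in DMM joints, 5 of 6 members were called lower, where 11.1% of probe sets were. Col9a1 fell by 2.34 on the log2 scale (SE 0.51, adjusted p = 0.00528), Col2a1 by 1.49 (SE 0.33, adjusted p = 0.00528), Col11a1 by 1.08 (SE 0.29, adjusted p = 0.0149), Col9a3 by 1.00 (SE 0.26, adjusted p = 0.0145) and Col9a2 by 0.55 (SE 0.13, adjusted p = 0.0069). Col11a2 had a log2 ratio of -0.58 ± 0.22 SE (adjusted p = 0.0719). All 8-week DMM pools lay below all 4-week DMM pools for 6 of 6 members, against 20.1% of probe sets, and without pool 3 of DMM at 4 weeks or pool 1 of DMM at 8 weeks 3 members were called.

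The remaining steps gave no call. In DMM joints the step from 2 to 4 weeks gave 0 of 6 members called lower (0.569% of probe sets, 1 member at an unadjusted p under 0.05), and that from 8 to 16 weeks gave 0 of 6, where 0% of probe sets were called in either direction and 1 member had an unadjusted p under 0.05. In sham joints the step from 4 to 8 weeks gave 0 of 6 (0% of probe sets, 0 members at an unadjusted p under 0.05). From 8 to 16 weeks in sham joints the log2 ratios were large for Col9a1 (-2.60 ± 0.51 SE, adjusted p = 0.131) and Col2a1 (-1.76 ± 0.33, adjusted p = 0.0931), yet 0 of 6 members were called, where 0.0089% of probe sets were. In that step 5 of 6 members had an unadjusted p under 0.05 and the median was -0.93. Without pool 3 of sham at 8 weeks the median was -0.58 and Col2a1, Col9a1 and Col9a3 had an unadjusted p under 0.05. Without pool 1 of that group 2 members were called, in a fit that called 34 probe sets.

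DMM against sham at the same week is the comparison that isolates the cut ligament from age and handling. It found 0 of 6 members called in limma at any of the 4 weeks. At 2 weeks the log2 ratios lay between -0.13 for Col11a2 and 0.19 for Col9a1 (0 members at an unadjusted p under 0.05), and 2.43% of probe sets were called in either direction. At 4 weeks, when 19% of probe sets were called in either direction, all 6 log2 ratios were above 0 and 1 member, Col11a2, had an unadjusted p under 0.05. The median of the 6 was 0.50, and 0.23 without pool 3 of DMM at 4 weeks.

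The 4-week values by member were as follows. Col11a2 was at 10.57, 10.19 and 10.91 in DMM pools and 10.25, 9.71 and 10.07 in sham pools (log2 ratio 0.54, 95% interval 0.09 to 1.00, adjusted p = 0.0851). Col9a1 had a log2 ratio of 0.68 (-0.38 to 1.75, adjusted p = 0.355) and Col2a1 one of 0.55 (-0.13 to 1.23, adjusted p = 0.237). These intervals are wide enough to hold both no difference and a DMM level more than 2-fold higher. Col11a1 had a log2 ratio of 0.45 (-0.14 to 1.05, adjusted p = 0.27), Col9a3 of 0.27 (-0.28 to 0.81, adjusted p = 0.487) and Col9a2 of 0.15 (-0.11 to 0.42, adjusted p = 0.405). In 0 of 6 members did the DMM pools lie wholly above the sham pools, against 19.3% of probe sets. With array weights, which give noisier arrays less say, Col11a1 and Col11a2 were called higher in DMM joints, in a fit that called 7469 of 22482 probe sets.

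At 8 weeks all 6 log2 ratios of DMM against sham were below 0, from -1.24 for Col9a1 (95% interval -2.30 to -0.17, adjusted p = 0.345) to -0.07 for Col11a2 (-0.53 to 0.38, adjusted p = 0.91). Col9a1 was the 1 member with an unadjusted p under 0.05, and 0.00445% of probe sets were called in limma. Much of this difference came with pool 3 of sham. Without it the log2 ratio of Col9a1 was -0.54, that of Col2a1 was -0.13 in place of -0.58, that of Col11a1 -0.05 in place of -0.37, and Col11a2 turned to 0.12, with an adjusted p of 0.999 for each member.

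At 16 weeks Col2a1 was at 11.74, 12.21 and 11.48 in DMM and 10.36, 11.26 and 11.14 in sham pools, the 1 member of 6 whose DMM pools all lay above its sham pools (background 10.8%). Its log2 ratio was 0.89 (95% interval 0.21 to 1.57, unadjusted p = 0.0126 and adjusted p = 0.511 in limma), so it was not called, and 0.0623% of probe sets were. Col9a1 had a log2 ratio of 0.74 (-0.33 to 1.81, adjusted p = 0.839). The other 4 lay between -0.02 for Col9a2 (-0.29 to 0.24) and 0.29 for Col9a3 (-0.25 to 0.84).

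**Figure D4:**
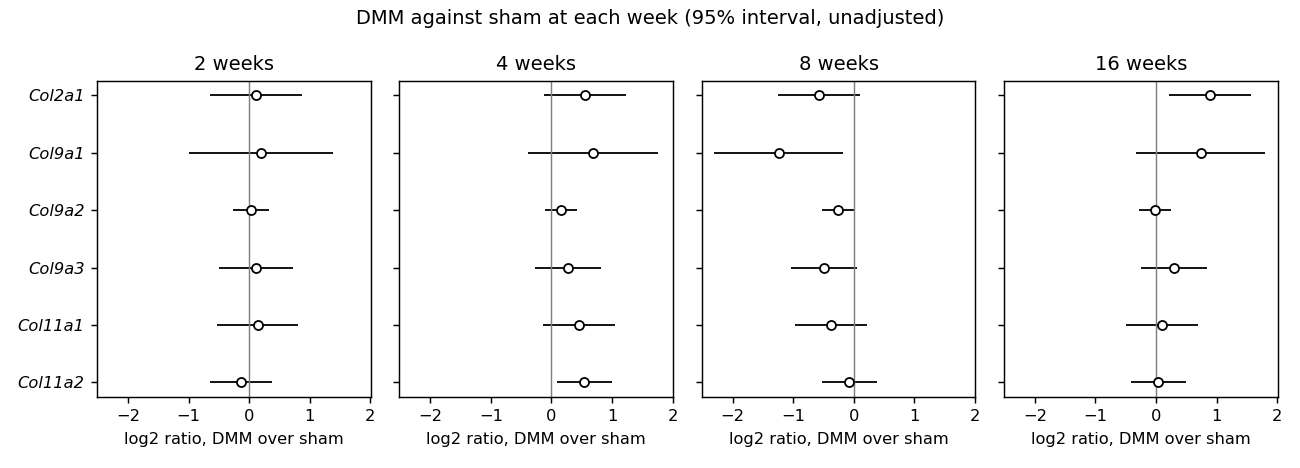
Log2 ratio of DMM over sham at each week for the 6 cartilage collagens, with unadjusted 95% intervals from the limma fit. All 6 points lie right of 0 at 4 weeks (0.15 to 0.68) and left of it at 8 weeks (-1.24 to -0.07), and none was called.

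The change of the DMM effect between weeks was tested directly. The DMM over sham log2 ratios were above 0 at 4 weeks and below 0 at 8 weeks for all 6 members. Their signed difference, 4 minus 8 weeks, ran from 0.41 for Col9a2 up to 1.92 ± 0.72 SE for Col9a1. Of these, 0 of 6 were called (adjusted p 0.106 to 0.196 in limma), where 1.59% of probe sets were. An unadjusted p under 0.05 was reached by 3 of 6 (Col2a1, Col9a1 and Col9a2). The median over the members was 0.79, and it was 0.46 without pool 3 of sham at 8 weeks and 0.52 without pool 3 of DMM at 4 weeks. In both cases 0 members were called, and 0 of all probe sets. Without pool 1 of sham at 8 weeks 1 member was called, in a fit that called 3628 probe sets. The effect at 2 weeks set against that at 4 weeks, and the effect at 16 weeks set against that at 4 weeks, each gave 0 of 6 members called, 0 of 6 at an unadjusted p under 0.05 and 0% of probe sets called in limma.

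The members moved together from pool to pool. Pearson's r between any pair of members over the 26 pools ran from 0.88 (Col2a1 and Col9a2) to 0.99 (Col2a1 and Col9a1), over 15 pairs, and the points share arrays and groups. When each pool was taken as its deviation from its group mean, r still ran from 0.70 to 0.94. The sizes of the falls were compared between members on their brightest probe sets. From time 0 to 16 weeks in sham joints, 14 of the 15 pairs differed in their change with no overlap between the pools. Each of these had the smallest p that an exact two-sided permutation test of 3 against 3 pools allows (p = 0.1, adjusted over the 15 pairs 0.107). This test could not pass 0.05 whatever the values, so it cannot decide whether the falls differed between members. The remaining pair was Col11a1 and Col11a2, whose changes differed by -0.12 (exact p = 0.7).

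Set beside Col2a1 in the same pool, the change of Col9a1 from time 0 to 16 weeks was -1.48 ± 0.59 log2 units in DMM joints and -1.33 ± 0.27 in sham joints (mean ± SD, n = 3 pools each). Col11a2 moved the other way, to 0.48 ± 0.03 in DMM and 1.33 ± 0.39 in sham joints, and Col11a1 to 0.42 ± 0.15 in DMM and 1.21 ± 0.34 in sham joints. At 4 weeks the brightest Col9a3 probe set stood at -0.52 ± 0.05 relative to Col2a1 in DMM joints and at -0.23 ± 0.03 in sham joints. These are differences of log2 signal on an array and give no ratio of the proteins. All use the brightest probe set of each gene, and whether the other probe sets show the same was not tested.

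The remaining probe sets were also lower at 16 weeks than at time 0. The dimmer Col9a1 probe set (1421381_a_at) had a log2 ratio of -2.43 ± 0.28 SE in DMM (adjusted p = 0.000108) and -2.48 ± 0.28 in sham joints (adjusted p = 2.99e-05) at 16 weeks against time 0, beside -3.76 and -4.50 for the brighter one. By this probe set the sham ratio of Col9a1 was nearer to 0 than the -3.17 of Col2a1, so the order of the members in sham joints depended on the probe set. In DMM joints its -2.43 was still further from 0 than the -2.28 of Col2a1. Its sham pools at 16 weeks lay at 7.77 to 7.91, under the filter line of 7.93, while the brighter probe set was still at 7.94 to 9.13. Col9a3 was read by 2 more probe sets, of which 1460693_a_at had log2 ratios of -2.74 ± 0.36 in DMM joints (adjusted p = 0.000255) and -3.15 ± 0.36 in sham joints (adjusted p = 2.99e-05), below the -2.25 and -2.54 of the brightest one. The third, 1420280_x_at, was below the filter on average (6.06 to 6.62 in DMM and 6.04 to 6.24 in sham joints at 16 weeks, 8.09 to 8.57 at time 0). The dimmer Col11a1 probe set (1449154_at) had log2 ratios of -1.82 ± 0.29 in DMM (adjusted p = 0.00141) and -2.08 ± 0.29 in sham joints (adjusted p = 0.000201), close to the brighter one. At 8 weeks in DMM against sham, 1460693_a_at of Col9a3 had a log2 ratio of -1.24 ± 0.36 SE (adjusted p = 0.193), so no probe set of the members was called in that comparison either.

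Collagens of other connective tissue, such as bone, tendon and skin, are set beside the members next. Of the 11 listed, 9 had higher signals in DMM joints than in sham joints at 4 weeks by the test, where 12.4% of probe sets were called higher, and the median log2 ratio was 0.50 over the cartilage collagens, 1.13 over this list and -0.01 over all probe sets. Col6a2, a chain of the beaded microfibrils around cells, was at 13.04 ± 0.41 in DMM and 11.45 ± 0.36 in sham pools at 4 weeks (SD, n = 3 each, log2 ratio 1.60 ± 0.28 SE, adjusted p = 0.00118). Col12a1, a fibril-associated collagen of tendon, was at 12.13 ± 0.54 in DMM and 10.63 ± 0.09 in sham pools (1.50 ± 0.24 SE, adjusted p = 0.000774). Col3a1 of soft connective tissue rose by 0.61 (SE 0.20, adjusted p = 0.0336), while Col1a2 of collagen I had a log2 ratio of -0.03 (adjusted p = 0.875). From 4 to 8 weeks in DMM joints 10 of these 11 genes were called lower, against 11.1% of probe sets.

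At 16 weeks the other collagens gave other counts than at 4 weeks. In DMM joints against time 0, 6 of 6 cartilage collagens were called lower in limma with a median log2 ratio of -2.06, beside 0 of the 11 other collagens with a median of -0.07. In sham joints 6 of 6 cartilage collagens were called lower with a median of -2.25, beside 8 of the 11 with a median of -0.95. Col12a1 fell by 1.75 in sham joints (SE 0.24, adjusted p = 0.000134). Directly between DMM and sham joints at 16 weeks, 1 of the 11 was called and 0 of 6 cartilage collagens, where 0.0623% of probe sets were. That gene was Col3a1, which was higher in DMM joints (log2 ratio 1.31 ± 0.20 SE, adjusted p = 0.0055 in limma). The difference between the lists was not tested.

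**Figure D5:**
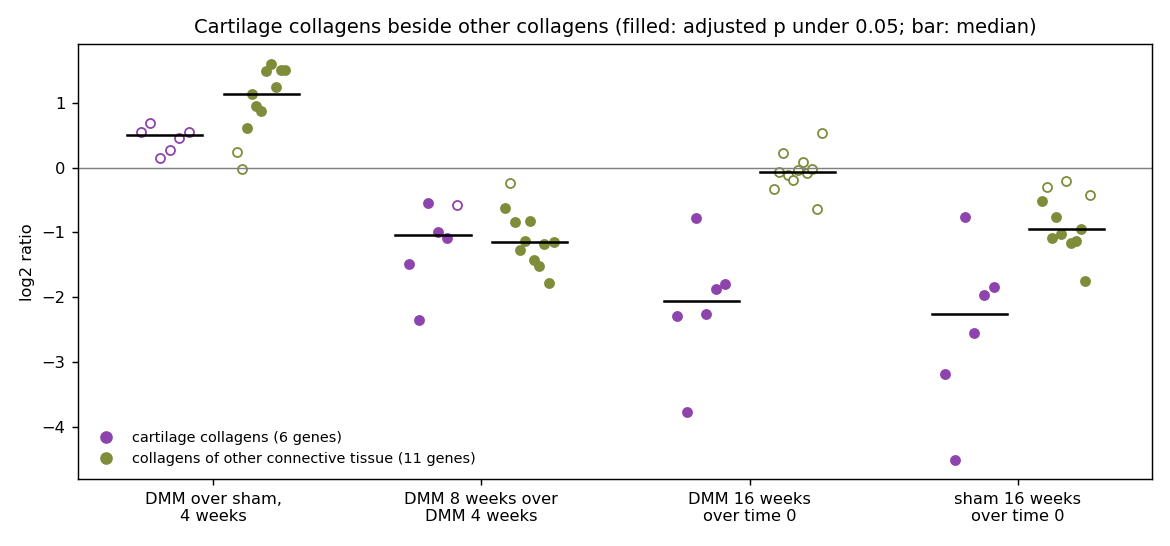
Log2 ratios of the 6 cartilage collagens (purple, left) and of 11 collagens of other connective tissue (green, right) in 4 comparisons, with filled points called at an adjusted p under 0.05 and bars at the medians. At 4 weeks DMM over sham the medians are 0.50 and 1.13, and at 16 weeks DMM over time 0 they are -2.06 and -0.07.

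The cartilage matrix list held proteoglycans, matrilins and the cartilage collagen Col27a1. Of 18 genes with a probe set, 16 were tested. At 16 weeks 10 of these were called lower in DMM joints and 12 in sham joints against time 0. Col27a1 was among them in both, and the medians were -0.78 and -0.86. The background for this and the following lists at 16 weeks was 1.23% of probe sets in DMM and 4.48% in sham joints. At 4 weeks, in DMM over sham joints, 1 was called higher and 2 lower, against 12.4% and 6.68% of probe sets. These shares are the background for the following counts of that comparison. Matn3, which encodes a matrilin that bridges collagen fibrils, was at 9.52 ± 0.24 in sham joints at 16 weeks and 12.44 ± 0.01 at time 0 (SD, n = 3 each, log2 ratio -2.92 ± 0.33 SE, adjusted p = 2.99e-05), and Epyc, a small proteoglycan of growing cartilage, fell by 2.57 (SE 0.25, adjusted p = 1.01e-05). Comp, which helps collagen fibrils form, fell by 0.84 (SE 0.17, adjusted p = 0.00406). Prg4, the lubricin of the joint surface, had a log2 ratio of -0.18 (adjusted p = 0.527).

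Of 6 regulators of the cartilage program, 3 were called lower in sham joints at 16 weeks. Sox5, a partner of SOX9, fell by 1.08 (SE 0.16, adjusted p = 0.000323) and had a DMM over sham log2 ratio at 4 weeks of 0.69 (SE 0.16, adjusted p = 0.00628). Fgfr3, which restrains growth plate chondrocytes, fell by 1.00 in sham joints (SE 0.11, adjusted p = 2.99e-05), whereas Sox6 (0.28, adjusted p = 0.438) and Wwp2 (-0.27, adjusted p = 0.0783) were not called. Of the genes of hypertrophic chondrocytes and mineralisation, 8 had a probe set and 7 were tested. At 16 weeks against time 0, 7 of 7 were called lower in sham joints and 5 of 7 in DMM joints. Col10a1, the collagen of hypertrophic cartilage, fell by 3.49 (SE 0.34, adjusted p = 1.01e-05) and Panx3, a channel of such cells, by 1.44 (SE 0.22, adjusted p = 0.000379) in sham joints. Mmp13, a collagenase that cuts collagen II, fell by 1.19 in sham joints at 16 weeks (SE 0.18, adjusted p = 0.000411) and had a DMM over sham log2 ratio at 4 weeks of 0.77 (SE 0.18, adjusted p = 0.00677). Ibsp, a bone sialoprotein, was likewise higher by 0.46 at 4 weeks (SE 0.15, adjusted p = 0.0409) and fell by 0.96 in sham joints (SE 0.15, adjusted p = 0.00071).

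The enzymes that fold, trim and cross-link collagen were mostly higher in DMM joints at 4 weeks, where 0 of 6 cartilage collagens were called, with 16 of 20 called higher than sham and 1 lower. Serpinh1, the collagen chaperone HSP47, rose by 0.94 in DMM over sham joints (SE 0.26, adjusted p = 0.0161) and Plod2, a lysyl hydroxylase, by 0.91 (SE 0.24, adjusted p = 0.0134), and Ppib had a log2 ratio of 0.08 (adjusted p = 0.455). Against time 0 at 16 weeks, 14 of the 20 were called lower in sham joints and 1 in DMM joints. Directly between DMM and sham joints at 16 weeks, 0 of the 20 were called, where 0.0623% of probe sets were. Among 9 proteases, 5 were called higher and 1 lower in DMM at 4 weeks. Mmp3, a protease that activates collagenases, was at 13.09 ± 1.32 in DMM and 9.83 ± 0.77 in sham pools (log2 ratio 3.26 ± 0.52 SE, adjusted p = 0.000836), and Mmp2, a gelatinase, rose by 1.52 (SE 0.28, adjusted p = 0.00153). Mmp8 fell by 0.32 (SE 0.10, adjusted p = 0.0308) and Mmp9 had a log2 ratio of -0.10 (adjusted p = 0.529). Of 5 collagen receptors 4 were called higher in DMM at 4 weeks, among them Ddr2 (0.80 ± 0.16 SE, adjusted p = 0.00282), Itga10 (0.41 ± 0.13, adjusted p = 0.0313) and Itgb1 (0.28 ± 0.09, adjusted p = 0.0396).

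The genes most like the cartilage collagens were chosen by Pearson's r over the 26 pools with the mean of the 6 members, among 11482 other genes. They were Matn3 (r 0.98), Epyc (0.98), Hapln1 (0.97), Cnmd (0.97), Col10a1 (0.96), Smpd3 (0.95), Car12 (0.94), Panx3 (0.94), Col27a1 (0.92) and Peg3 (0.92). The points share arrays and groups, so these values describe likeness and carry no test. All 10 fell in sham joints by 16 weeks, which their choice by likeness favours. In DMM over sham joints at 4 weeks Peg3 (0.59, adjusted p = 0.00614) and Car12 (0.64, adjusted p = 0.0459) were called higher.

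Levels of cell type markers were set beside the members. All 8 chondrocyte markers had a probe set, and Matn1, a defining cartilage matrilin, lay below the brightness filter at 6.24 to 7.71. Their mean ran from 9.69 to 9.94 in DMM and 9.39 to 9.60 in sham joints at 16 weeks, against 11.11 to 11.34 at time 0, and its r with the mean of the members was 0.98 over the pools (this set shares no gene with the members). Over the same weeks the 6 measured osteoblast markers ran from 10.68 to 10.79 in DMM, 10.32 to 10.74 in sham and 11.27 to 11.59 at time 0, and the 5 measured erythroid markers from 12.13 to 12.57 in DMM, 12.30 to 12.69 in sham and 11.86 to 12.38 at time 0. The 5 endothelial markers ran from 8.98 to 9.18 in DMM, 8.81 to 8.90 in sham and 9.17 to 9.30 at time 0, and the 5 tendon and ligament markers averaged 9.83 in DMM, 8.91 in sham and 9.65 at time 0. Of 4 fat cell markers tested, 4 were called lower in DMM and 3 in sham joints by 16 weeks. The r with the mean of the members was 0.90 for the osteoblast, 0.73 for the endothelial, 0.61 for the tendon and ligament, 0.35 for the fat cell, 0.06 for the macrophage and -0.65 for the erythroid set. Skeletal muscle markers (12 of 12 measured) varied most, from 12.34 to 12.96 in DMM and 10.89 to 12.50 in sham joints at 16 weeks and 10.49 to 11.87 at time 0, with an r of -0.32 with the members. With the muscle level as a covariate 6 of 6 members were still called lower at 16 weeks in both arms, and likewise with the Gapdh difference, which ran from 0.21 to 0.56 over all pools (r -0.26 with the members). The part of the other cell types in the members' fall was not tested.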

How the data were processed

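RNA pools of the medial knee compartment were measured on Affymetrix mouse expression arrays. The authors imaged the arrays, normalized them by systematic variation normalization (SVN) and deposited log2 signal intensities for 45101 probe sets, and these values were used as deposited. The array medians lay between 7.90 and 7.95, and no probe set was centred. Arrays carry no depth, so the number of pools limits the precision. Probe sets were named from the platform annotation, in which 34958 had 1 symbol, 932 several and 9211 none, and none was named from a row with several.

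A linear model per probe set (limma 3.58.1, R 4.3.3) took all 26 pools and gave each group its own coefficient, leaving 17 residual degrees of freedom. It covered the 22482 probe sets whose mean over the arrays exceeded 7.93, the median of the array medians. p-values were adjusted by Benjamini-Hochberg over all of them, and a call needed an adjusted p under 0.05. The fit was tested on simulated data. Exact permutation tests compared 3 pools with 3, where no p below 0.1 is possible. Per the paper's methods, mice were pooled at random and pools joined at random into time courses, so pool numbers were not used as a block.

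Named are the 6 members and, of each list, the 2 brightest genes and the 2 with the largest change in sham joints at 16 weeks or in DMM against sham joints at 4 weeks, and the 10 genes most like the members. Members and lists were chosen with earlier results of these data known. Alternatives were the filter, normalization, weights, covariates, the replicate block, the prior, the probe set rule and each pool left out. Promoter sequences came from RefSeq (GRCm38.p6).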

Additional observations from a re-analysis of the deposited data

How the results depend on the processing

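In the 12 comparisons of a group with time 0 or of DMM with sham, no called result for a member changed sign in any alternative. Signs of single members in the steps between weeks and in the change of the DMM effect were not compared. The counts for 16 weeks against time 0 (6 of 6 in DMM and in sham joints) were the same in all 9 alternatives and with each pool left out. The number of members called changed elsewhere, and the causes were not tested. For sham at 4 weeks against time 0 (main count 2) it was 5 with array weights, 4 with only the groups compared, 1 with the muscle covariate, 0 with the Gapdh covariate, and 0 to 2 with a pool left out. For sham at 8 weeks (4) it was 6 with array weights, 5 with the replicate block or the mean of all probe sets, 3 with the Gapdh covariate, 2 without the filter, 0 with the muscle covariate, 0 with only the groups compared, and 0 to 6 with a pool left out. For DMM against time 0, it was 2 at 2 weeks with only the groups compared (0), 2 at 8 weeks with the Gapdh covariate (6), and at 4 weeks (1) 2 with quantile normalization or array weights, 0 with the Gapdh covariate, the mean of all probe sets or only the groups compared, and 0 to 2 with a pool left out. DMM against sham at 4 weeks gave 2 with array weights (0). From 2 to 4 weeks in sham joints (1) it was 6 with array weights, 3 with the replicate block, 2 with the mean of probe sets, 0 with only the groups compared, and 0 to 4 with a pool left out. From 8 to 16 weeks in sham joints (0) it was 4 with array weights, 3 with the muscle covariate, 1 with the replicate block and 0 to 2 with a pool left out, from 4 to 8 weeks in DMM joints (5) 6 with array weights and 3 to 5 with a pool left out, and for the DMM effect at 4 minus 8 weeks (0) 2 with array weights and 0 to 1 with a pool left out. Calls over all 22482 probe sets changed too. With array weights they were 1219 for sham at 4 weeks (main fit 274) and 2576 for sham at 8 weeks (211). They were 8113 from 2 to 4 weeks (2483) and 2890 from 8 to 16 weeks (2) in sham joints. From 4 to 8 weeks in DMM joints they were 8804 (3903), and for the DMM effect at 4 minus 8 weeks 7009 (358).

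In these 12 comparisons, reversals touched uncalled log2 ratios of at most 0.35. With the Gapdh covariate these were Col2a1 0.0041 and Col11a1 0.016 in sham at 2 weeks, and Col2a1 0.22 and Col9a1 0.35 in DMM at 2 weeks, against time 0. Col11a1 in DMM at 2 weeks was -0.038 with quantile normalization and -0.0094 with the replicate block. DMM against sham with array weights gave Col9a2 -0.035 and Col11a2 0.023 at 2 weeks and Col11a2 0.028 at 8 weeks. With a pool left out, DMM against sham at 2 weeks ranged from -0.10 to 0.32 for Col2a1, -0.0033 to 0.36 for Col9a1, -0.030 to 0.077 for Col9a2, -0.019 to 0.23 for Col9a3, -0.051 to 0.32 for Col11a1 and -0.27 to 0.11 for Col11a2. It ranged from -0.19 to 0.12 for Col11a2 at 8 weeks, and at 16 weeks from -0.078 to 0.086 for Col9a2, -0.11 to 0.39 for Col11a1 and -0.15 to 0.20 for Col11a2. Against time 0 at 2 weeks it ranged from -0.32 to 0.098 for Col2a1 in DMM and -0.22 to 0.15 for Col11a1 in sham joints.

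The labels give same-numbered pools of different groups no shared source. Their deviations from the group means correlated from -0.42 to 0.73 (mean 0.11), and 22 of 26 pools were closer to pools of their own number, which is a hint from the data and not the design. Groups of 2 or 3 pools limit what the tests can show.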
